A study of Saccharomyces cerevisiae with 4 samples.

Results

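The array described here compared budding yeast cells that had been moved out of sporulation medium into rich medium for 40 min with cells of an acetate culture. All 6218 open reading frames (ORFs) on the array were taken, from 1 of the 4 arrays of the series. The sample was total RNA of an SK1 diploid (GF18) in which NDT80 stands under the promoter of SPS4, a gene that is itself switched on in mid-sporulation (the pSPS4-NDT80 strain). These cells had been grown in YPD and then overnight in acetate medium (YPA), had been kept in sporulation medium (SPM, which holds acetate) for 5.5 h, and were then resuspended in YPD, which holds glucose, for 40 min. The reference was RNA of wild-type SK1 diploid cells (NKY1551) grown in YPA and taken just before transfer to SPM, and the same RNA served on all 4 arrays. The other arrays hold the pSPS4-NDT80 strain after 5.5 h of SPM and after 0 or 20 min of YPD. Strain, medium and stage therefore differ together between the 2 channels and cannot be told apart. The sample was labelled with Cy5 and the reference with Cy3, without a dye swap.

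Yeast cells starved of nitrogen and fed acetate enter meiosis. Ime1 and the kinase Ime2 start the early genes of recombination and chromosome pairing, the transcription factor Ndt80 then starts the middle genes of the nuclear divisions and of the prospore membrane, and late genes build the spore wall. In vegetative cells glucose is known to repress the genes of respiration and acetate use and to raise those of ribosome synthesis. A culture moved from SPM to YPD could therefore carry parts of both programs. The question put to this array was which functions had reached, passed or still missed the level of acetate-grown cells, and which sporulation genes remained above it.

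Each ORF was printed as a PCR product in 2 neighbouring spots. After background subtraction the gene spots had a median intensity of 2039 in the Cy5 channel of the sample and 1237 in the Cy3 channel of the reference. Ratios are log2 values of sample over reference, relative to the median gene of the array, and are the mean of the 2 spots. With 1 array per group there was no replicate and no test, and the ± values are the SD of a gene's 2 spots. That SD (median 0.10 over all genes) covers noise between neighbouring spots only and leaves out the spread between hybridisations, RNA preparations and cultures. Measured against the spots that held buffer only, the sample was above background for 51.9% of genes and the reference for 73.9%. Both channels were above background for 2910 genes, the sample alone for 317, the reference alone for 1687 and neither for 1304. Where 1 channel was not above background the fold is a lower bound, written as "at least". Log2 ratios, also those of the other arrays, are printed as measured even where 1 or both channels were not above background, and are then uncertain.

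A gene was counted above the reference when the mean and both spots were at least 2-fold higher, below it when they were at least 2-fold lower, and near it when the mean lay within 1.5-fold. Of the 6218 genes, 1095 (17.6%) were above the reference, 1095 (17.6%) below it and 1608 (25.9%) near it. A further 425 lay between near and above, 691 between near and below, and 1304 were not measured in either channel. In 315 of the genes above, the reference was not above background, and in 626 of the genes below, the sample was not. With such a side set at its bound, 685 genes were still at least 2-fold below. The other arrays had 1244, 1239 and 1290 genes above and 1121, 1172 and 1253 below, in the order 5.5 h of SPM, 0 min and 20 min of YPD. Of 445 listed genes of ribosome synthesis, translation and precursor synthesis, 280 (62.9%) were above, against 17.6% of all genes. Of 151 listed genes of meiosis and spore formation, 81 (53.6%) were above. Of 80 listed genes of acetate use, the TCA cycle and the respiratory chain, 65 (81.25%) were below, against 17.6% of all genes.

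Markers of sporulating cells were far above the reference. SPS4 had Cy5 intensities of 39837 and 38308 in the YPD sample and Cy3 intensities of 256 and 170 in the YPA reference, so that it was at least 43.5-fold above. SSP2, GAS4, SPR1 and SPR3, which act in spore wall and prospore membrane formation, were at least 41.1-fold, 27.4-fold, 33.9-fold and 27.4-fold above. The early markers HOP1 and DMC1 were not above background in the sample. Among the markers of growing cells, NOP1, for the rRNA methyltransferase fibrillarin, was 6.36-fold above the reference, RPL3 (0.12 ± 0.12), TEF1 (-0.18 ± 0.06) and CLN2 (-0.09 ± 0.10, with the sample not above background) were near it, and PMA1, for the plasma membrane proton pump, was 1.68-fold lower. Of the 10 markers of haploid cells, which a diploid culture should lack, MFA1, MFA2, MF(ALPHA)2, STE3, STE6, BAR1 and RME1 were above background in neither channel and STE2 only in the reference. MF(ALPHA)1 was above background in both the sample and the reference, with a log2 ratio of 0.61 ± 0.08 (1.24 at 5.5 h in SPM). HO, for the mating-type endonuclease, was 4.97-fold above (2.31, and 1.63 with normalization within print-tip blocks, the blocks laid down by single printing pins). In the whole list of haploid and pheromone genes, 3 of 21 were above, none below and 13 not measured. Besides HO these were STE18, 5.41-fold above, and STE4, at least 2.56-fold, both for subunits of the pheromone G protein. They stood at 4.54 and 3.73 at 5.5 h in SPM, where the reference was not above background for STE4. The part of haploid cells in other results was not tested. In a culture of mixed cells, fewer cells of a type and less RNA per cell cannot be told apart.

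**Figure D1:**
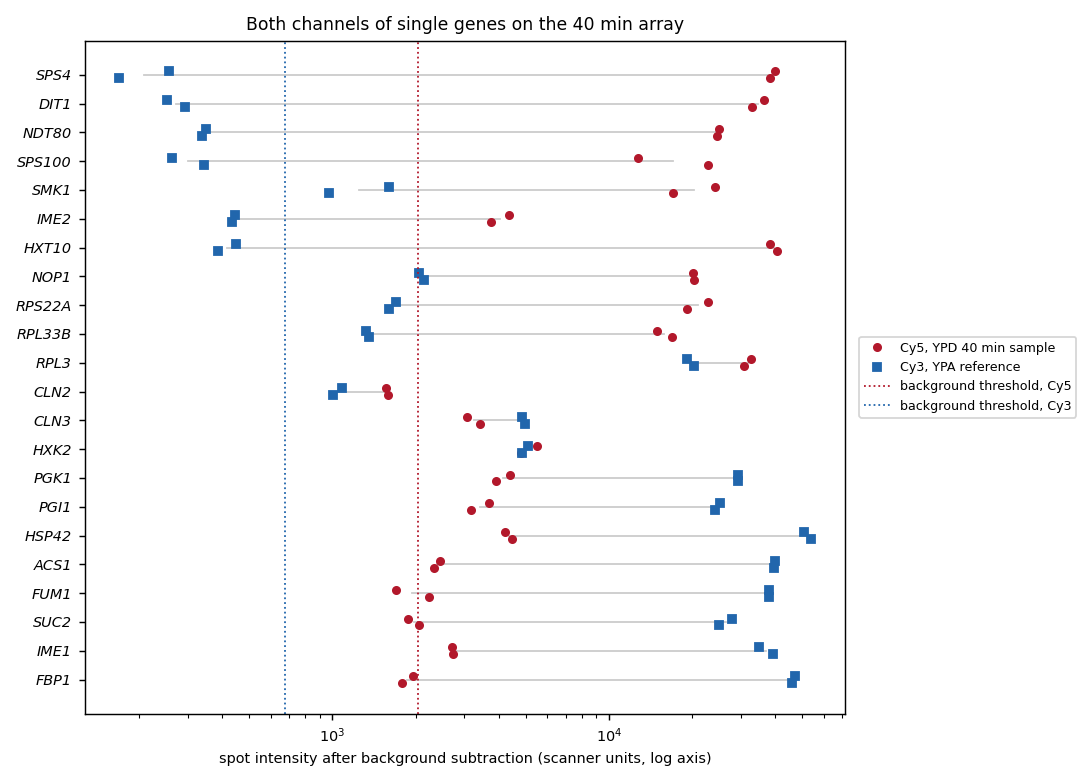
Background-subtracted spot intensities (log axis) of 22 named genes, with the 2 Cy5 spots of the YPD 40 min sample as circles, the 2 Cy3 spots of the YPA reference as squares and the background threshold of each channel as a dotted line. Spore genes such as SPS4 lie bright in Cy5 and below the Cy3 threshold, whereas FBP1, ACS1, FUM1 and IME1 lie bright in Cy3 and close to the Cy5 threshold.

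The genes of cytosolic ribosomal proteins had passed the level of the acetate culture. In the large subunit, 62 of 77 were above the reference, 3 near it and none below, with a median log2 ratio of 1.83 against 0.00 over all genes. In the small subunit, 47 of 55 were above and 1 below, with a median of 1.78. RPS22A had 22902 and 19142 in Cy5 of the YPD sample and 1706 and 1602 in Cy3 of the reference, a ratio of 8.75-fold. RPL33B was 8.62-fold above, RPS27A 8.47-fold, RPS28B 8.02-fold and RPL36A 6.67-fold. RPL36A stood at 2.74, and at 2.00 within print-tip blocks. The lowest large-subunit genes measured in both channels were RPL3 at 0.12 ± 0.12 and RPL8B at 0.42 ± 0.43, both near the reference, and RPS3 and RPS1B stood at 0.79 ± 0.09 and 0.88 ± 0.09. On the earlier arrays the medians of large and small subunit were -2.63 and -2.49 in SPM, -0.17 and -0.29 on transfer, and 1.44 and 1.34 after 20 min. Both lists lay under the reference in SPM, close to it on transfer and above it at 20 and 40 min. Most ribosomal proteins have a pair of nearly identical genes whose PCR products can bind each other's cDNA, so the split within a pair is uncertain. Of 55 pairs, both members were above in 41, and in 1 pair 1 member was above and the other below, with RPS30B at 2.03 ± 0.04 and RPS30A at -1.66 ± 0.33 (at least 1.47-fold below). RPL43A (2.54 ± 0.15) and RPL43B (-1.02 ± 0.05) also differed in sign, but RPL43B, the lowest member of its list, was not past 2-fold in both spots and was not above background in the sample. RPL43A had 1.05 within print-tip blocks.

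Genes that build ribosomes had also passed the reference. In the list of small-subunit rRNA processing, 48 of 63 were above, 1 near and 1 below, with a median of 1.92, and in the list of large-subunit assembly 51 of 66 were above, 5 near and none below, with a median of 1.74. Among the small-subunit genes, SNU13 and NHP2, for snoRNA-binding proteins, were 11.2-fold and 11.1-fold above, and IMP4, for a protein of the U3 particle, at least 6.76-fold. SQT1, for the chaperone of the ribosomal protein Rpl10, was at least 9.77-fold above, MRT4 at least 8.11-fold and CIC1 11.3-fold. The reference was dim for many of these genes, and 19 and 16 of the genes above in the 2 lists carry only a bound. The exceptions were few. DIM1, for the dimethylase of the 18S rRNA, was 2.51-fold below (-1.33 ± 0.11), a direction that was lost with normalization within print-tip blocks (0.03). UTP30 (-0.60 ± 0.01), UTP13 (-0.14 ± 0.06) and NIP7 (-0.24 ± 0.08) were close to the reference. REA1, for the large AAA ATPase of late large-subunit maturation, had -0.96 ± 0.01, with the sample not above background. Of the 19 genes for polymerase I and III subunits, 9 were above, 4 near, none below and 6 not measured, with a median of 1.41. RPA49 of polymerase I was at least 5.6-fold above, RPC19, shared by both enzymes, 5.96-fold, and RPC82 of polymerase III at least 3.75-fold. Within print-tip blocks RPC19 had 1.97, RPC82 1.94 and SQT1 4.63 in place of 2.58, 2.57 and 4.04. The large subunits RPA135 (-0.16 ± 0.01), RPO31 (0.49 ± 0.06) and RET1 (0.36 ± 0.17) were near the reference.

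FHL1, IFH1 and SFP1, for transcription factors of ribosomal protein genes, are named as the 3 highest members of the list of glucose regulators, so their side at 40 min was fixed by that choice. They had log2 ratios of 2.07 ± 0.04, 1.65 ± 0.22 and 1.64 ± 0.05. At 5.5 h in SPM their ratios were 2.19, -1.18 (with the sample not above background) and -0.38. FHL1 thus had like values on both arrays, whereas IFH1 and SFP1 were higher at 40 min than in SPM. Within print-tip blocks FHL1 fell short of 2-fold at 40 min (0.85).

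**Figure D2:**
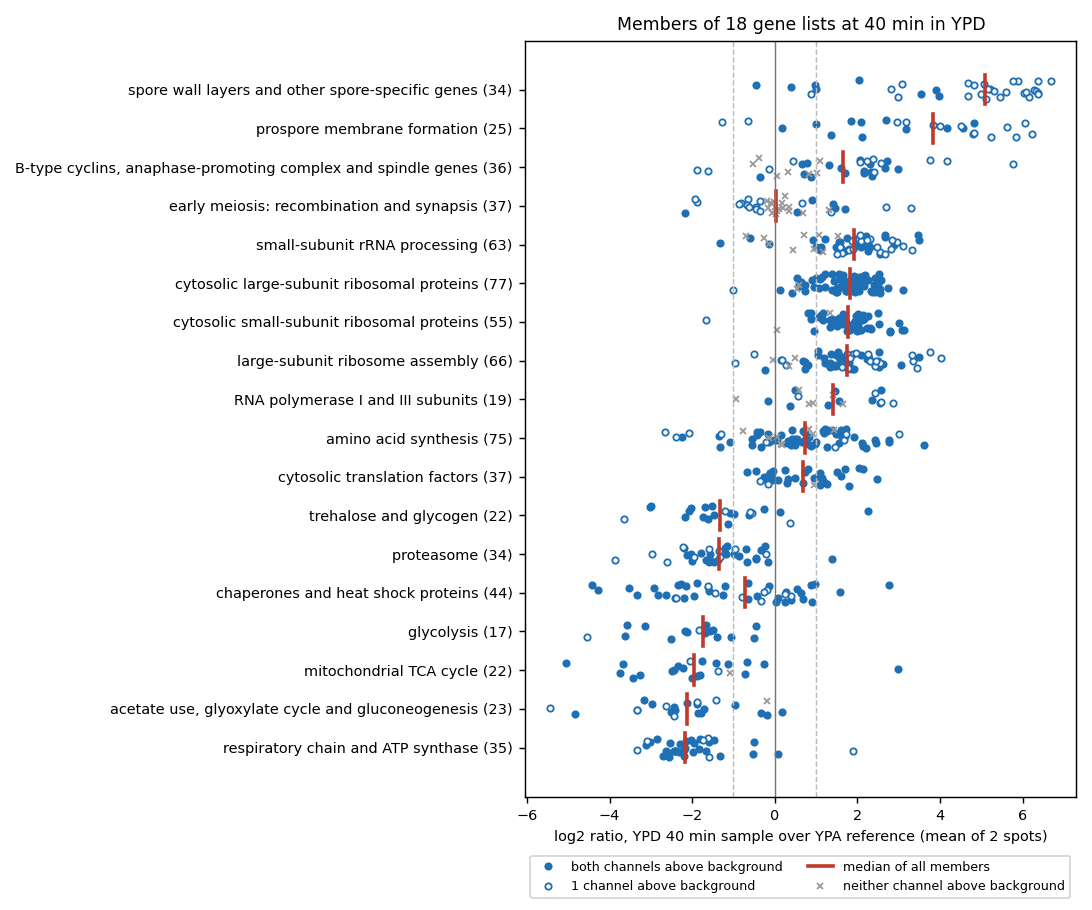
Log2 ratio of the YPD 40 min sample over the YPA reference for each member (points) of 18 gene lists, with list sizes in parentheses, medians as vertical bars and dashed lines at 2-fold. Filled points have both channels above background, open points 1 channel and crosses neither. Lists of spore formation and ribosome synthesis lie mostly right of the 2-fold line, and those of glycolysis, the TCA cycle, acetate use and respiration left of it.

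Genes of translation itself were mostly above or near the reference. Of 37 genes of cytosolic translation factors, 13 were above, 17 near and none below, with a median of 0.68. TIF11 (initiation factor 1A), CDC33 (the cap-binding protein eIF4E) and TIF5 (initiation factor 5) were 5.55-fold, 4.37-fold and 4.09-fold above, whereas CAM1, of elongation factor 1B, was 1.59-fold lower and TIF4632, for a form of eIF4G, was near at -0.47 ± 0.05. Of 21 genes of cytosolic aminoacyl-tRNA synthetases, 8 were above, 7 near and 1 below, with a median of 0.81. MES1, for the methionyl enzyme, was 8.01-fold above and GUS1, for the glutamyl enzyme, 2.72-fold below. Within print-tip blocks TIF5 (0.86) and GUS1 (-0.19) were no longer past 2-fold.

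Precursor synthesis was divided. Of 75 genes of amino acid synthesis, 29 were above, 21 near and 8 below, with a median of 0.74. BAT1 and BAT2 encode the mitochondrial and the cytosolic branched-chain aminotransferase and lay on opposite sides. BAT1 had Cy5 intensities of 27779 and 28032 in the sample and Cy3 intensities of 1576 and 1490 in the reference, 12.2-fold above, and BAT2 had 5942 and 6732 in Cy5 and 17721 and 18218 in Cy3, 4.74-fold below. HIS1, the first enzyme of histidine synthesis, was at least 5.35-fold above, and LEU1 of leucine synthesis 6.84-fold. PRO3, of the last step of proline synthesis, was at least 2.98-fold below and SER2, of the last step of serine synthesis, at least 4.12-fold. The remaining members below were ARG1, TRP1 and the glycine cleavage genes GCV1, GCV2 and GCV3, which were singled out after their values were seen. ARG1 and TRP1 were not past 2-fold within print-tip blocks (-0.01 and -0.62), where LEU1 had 3.40.

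In nucleotide synthesis, 13 of 32 genes were above, 7 near and 5 below. URA7 (CTP synthase), IMD4 (IMP dehydrogenase) and GUK1 (guanylate kinase) were 8.59-fold, 7-fold and 6.46-fold above. ADE1, ADE17 and ADE2 of the purine pathway were 3.47-fold, 2.82-fold and 2.44-fold below, and the other 2 members below, ADE12 and URA1, stood at -1.06 ± 0.06 and -1.15 ± 0.08. Within print-tip blocks ADE2 and ADE12 both had -0.75, short of 2-fold, and GUK1 had 1.69. The list median of 0.51 became 1.27 over the members with both channels above background.

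Glycolysis still missed the level of the acetate culture after 40 min in glucose. Of 17 genes, none was above, 2 were near and 15 below, with a median of -1.73. GPM1, for phosphoglycerate mutase, had 933 and 1098 in Cy5 of the YPD sample, which was not above background, and 14440 and 15605 in Cy3 of the reference, at least 12-fold below. PGI1, for phosphoglucose isomerase, was 12.3-fold below and PGK1, for phosphoglycerate kinase, 11.8-fold. Only HXK2, the main hexokinase of glucose growth (-0.50 ± 0.07), and PYK2, a minor pyruvate kinase (-0.47 ± 0.08), were near the reference, and GLK1, for glucokinase, was just past 2-fold (-1.07 ± 0.03). Within print-tip blocks HXK2 was below (-1.48) and GLK1 was not past 2-fold (-0.97). The median of the list was -3.08 at 5.5 h in SPM, -2.90 on transfer and -4.49 after 20 min, so that 40 min had the value nearest to the reference among the 4 arrays. PGK1 itself stood at -3.70, -4.05, -5.82 and -3.57 in this order. TYE7, for an activator of glycolytic genes, was 3.53-fold below at 40 min.

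Genes of fermentation lay more often below than above, and the share of sugar uptake genes below was close to that of all genes. Of 13 genes of pyruvate decarboxylases and alcohol and aldehyde dehydrogenases, 1 (7.7%) was above, 3 near and 6 (46.2%) below. Of all genes 17.6% were above and 17.6% below. ALD5, for a mitochondrial aldehyde dehydrogenase, was 4.17-fold above, and ADH5, ALD4 and ADH3 were 4.54-fold, 4.45-fold and 3.59-fold below. PDC1 and PDC5, for the pyruvate decarboxylases of fermentation and singled out after their values were seen, were near the reference at -0.35 ± 0.00 and -0.37 ± 0.07. The value of PDC1 was -3.11 within print-tip blocks, where it was below. Of 19 genes of hexose transport and glucose sensing, 2 (10.5%) were above, 5 near and 4 (21.1%) below. The 2 above were HXT10 and HXT14, at least 44.7-fold and 22-fold. HXT10 had the largest bound of any gene on the array, with 38230 and 40673 in Cy5 and 448 and 387 in Cy3, and both were already above the reference at 5.5 h in SPM (5.67 ± 1.48 and 5.68 ± 0.03). Within print-tip blocks HXT10 had 5.40 in place of 6.17. HXT1, for the low-affinity transporter of high glucose, was at 1.06 ± 0.19, with 1 of its spots under 2-fold. HXT6 and HXT7, for high-affinity transporters with nearly identical sequences, were 5.52-fold and 3.81-fold below, and SNF3, for the sensor of low glucose, at least 2.49-fold. SUC2, for invertase, which glucose represses, was 22.5-fold below.

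**Figure D3:**
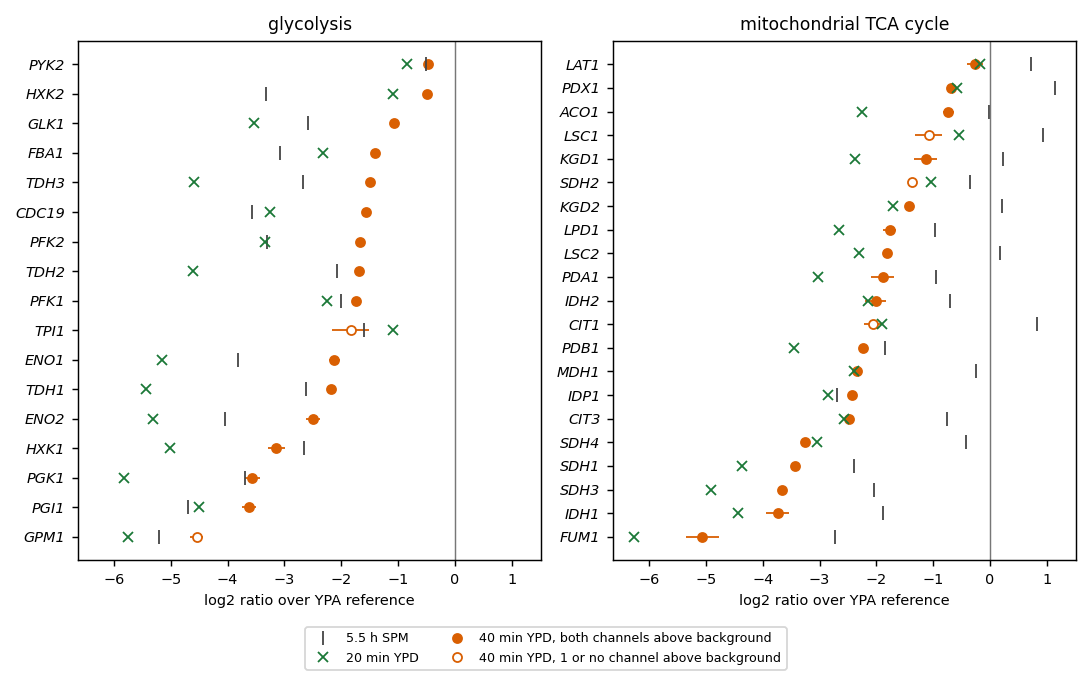
Log2 ratios over the YPA reference of each glycolysis gene (left) and of the mitochondrial TCA cycle genes reported here (right) at 40 min in YPD (circles, with the SD of 2 spots), beside 5.5 h in SPM (vertical ticks) and 20 min in YPD (crosses). Every glycolysis gene lies left of 0 at 40 min, and most lie to the right of their 20 min value, and the TCA cycle genes shown also lie left of 0, with FUM1 the farthest.

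Genes by which cells live on acetate lay below a reference that was growing on it. In the list of acetate use, the glyoxylate cycle and gluconeogenesis, none of 23 was above, 3 were near and 18 below, with a median of -2.12. FBP1, for the gluconeogenic fructose-1,6-bisphosphatase, had 1956 and 1789 in Cy5 of the YPD sample and 46981 and 46146 in Cy3 of the YPA reference, at least 38.3-fold below. ACS1, for acetyl-CoA synthetase, was 28.4-fold below and SFC1, for a mitochondrial succinate-fumarate carrier, 10.2-fold. PCK1, for the gluconeogenic carboxykinase (0.16 ± 0.03), ICL1, for isocitrate lyase of the glyoxylate cycle (-0.35 ± 0.01), and ADY2, for an acetate transporter (-0.18 ± 0.04), were instead near the reference. ICL1 stood at 0.05, 0.09 and -1.38 on the arrays of 5.5 h, 0 min and 20 min, and ADY2 at 1.18, 0.96 and -0.63. The list median was -1.47 in SPM, -3.20 at 0 min and -3.56 at 20 min. CYB2, for lactate dehydrogenase, which lies outside the list, was at least 18.1-fold below. Within print-tip blocks the ratios of FBP1, ACS1 and SFC1 were -6.87, -6.57 and -1.98, and that of ICL1 was 0.29.

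In the mitochondrial TCA cycle, 16 of 22 genes were below and 1 near, with a median of -1.95. FUM1, for fumarase, was the lowest gene measured in both channels on the array, a rank it lost to ACS1 and others within print-tip blocks, with 1693 and 2246 in Cy5 of the sample and 37897 and 37919 in Cy3 of the reference, 33.5-fold below. IDH1, of isocitrate dehydrogenase, and SDH3, of succinate dehydrogenase, were 13.3-fold and 12.7-fold below. In the respiratory chain and ATP synthase, 31 of 35 genes were below, 3 near and 1 above, with a median of -2.17. NDI1, for the internal NADH dehydrogenase, was 8.69-fold below, ATP5 of the ATP synthase at least 8.22-fold and QCR10 of complex III at least 6.72-fold. The alternative forms of cytochrome oxidase subunit V were on opposite sides. COX5A, the form of aerobic cells, was 4.56-fold below and COX5B, the hypoxic form, at least 2.46-fold above. COX5B was already above in SPM (3.04). Within print-tip blocks FUM1 had -3.77, SDH3 -3.03, NDI1 -2.47 and COX5A -1.48. Mitochondrial ribosomal proteins were closer to the reference, with 5 of 68 above, 19 near, 15 below and a median of -0.53, and in 14 of the 15 below the sample was not above background.

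Most storage genes lay below, and below was the largest class, but not a majority, among chaperone and stress genes. Of 22 genes of trehalose and glycogen, 14 were below, 4 near and 1 above, with a median of -1.34. PGM2, for phosphoglucomutase, and GPH1, for glycogen phosphorylase, were 8.12-fold and 8.01-fold below, and PIG2, for a regulatory partner of glycogen synthase phosphatase, was 4.8-fold above. Within print-tip blocks PGM2 had -3.74 and PIG2 3.18. Among 44 chaperones and heat shock proteins, 21 were below, 13 near and 2 above, with a median of -0.72. BTN2 and HSP42, which act in sorting aggregated proteins, were 21.6-fold and 19.3-fold below, and the mitochondrial disaggregase gene HSP78 11.6-fold, whereas HSP31 was 6.81-fold above and CCT5 of the cytosolic chaperonin 3.01-fold.

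The environmental stress list was split, with 17 of 36 below, 8 near and 7 above. YGP1, for a secreted glycoprotein, was 13.7-fold below and SPI1, for a wall protein, at least 5.32-fold, and MSN4, for a stress transcription factor, at least 2.37-fold. YGP1 had -4.38 within print-tip blocks. CTT1, for cytosolic catalase, had 9587 and 10790 in Cy5 of the sample and 653 and 602 in Cy3 of the reference, at least 10.8-fold above, and XBP1, for a stress-induced repressor, was 6.18-fold above. CTT1 stood at 0.63, 0.68 and 0.63 on the other 3 arrays, with neither channel above background in SPM, and at 3.47 ± 0.21 at 40 min. XBP1 stood at -0.25, 0.05 and 1.75, and at 2.63 ± 0.16 at 40 min. Each thus had its highest value on the 40 min array, whereas GPP1, for a glycerol phosphatase and the remaining member of the 3 highest, stood at 1.49, 4.25, 3.75 and 2.75 ± 0.11 and was highest on transfer.

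Most proteasome genes lay below, whereas autophagy and peroxisome genes came closer to the share of all genes that were below (17.6%). Of 34 proteasome genes, 22 were below, 6 near and 1 above, with a median of -1.36. The list stood at 0.25 in SPM, -0.40 at 0 min and -0.91 at 20 min, so its distance from the reference was largest at 40 min. RPN4, the transcription factor of proteasome genes, was at least 4.58-fold below, RPN3 at least 3-fold and RPT3 at least 2.12-fold, all with the sample not above background, while RPN10, for a ubiquitin receptor, was 2.59-fold above (0.79 within print-tip blocks, short of 2-fold). Of 35 genes of autophagy and vacuolar proteases, 10 (28.6%) were below, 11 (31.4%) near and 3 above, where 25.9% of all genes were near. In 7 of the 10 below the sample was not above background. The list median of -0.58 became 0 with such members at their bound. ATG8 and ATG1, for the ubiquitin-like protein and the kinase of autophagy, were 8.99-fold and 5.52-fold above, and PBI2, for an inhibitor of vacuolar proteinase B, was at least 8.41-fold below. In the peroxisome list 10 of 34 (29.4%) were below, 14 (41.2%) near and 2 above. PIP2, for an activator of fatty acid oxidation genes, was 14.2-fold above, whereas PEX11 and the oxidation enzyme FOX2 were 7.03-fold and 4.95-fold below. PEX11 had -2.14 within print-tip blocks.

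Nitrogen, lipid and wall genes were spread over all classes. In nitrogen scavenging, 9 of 39 were above, 6 near and 14 below. BAP2, for a permease of branched-chain amino acids, was 4.48-fold above and the basic amino acid transporter gene ALP1 at least 3.74-fold, whereas DIP5, for an acidic amino acid permease, was 5.89-fold below and the proline oxidase gene PUT1 at least 4.44-fold. Within print-tip blocks BAP2 was short of 2-fold (0.64) and DIP5 had -1.59. Of 39 genes of sterol, fatty acid and sphingolipid synthesis, 13 were below, 11 near and 3 above. ELO3 and ELO2, for fatty acid elongases, were at least 10.1-fold and 9.42-fold above, and ERG6, OLE1 and ERG13 were 4.75-fold, 4.57-fold and 4.49-fold below. These 3 had -3.50, -1.46 and -1.44 within print-tip blocks. Of 36 genes of the vegetative wall, 15 were below, 8 near and 5 above. PIR1, PIR3 and HSP150, for related wall proteins, were at least 19.8-fold, 15.9-fold and 13.5-fold below, and KRE6 and GAS3, of glucan synthesis and remodelling, were both 2.56-fold above.

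In the vegetative cell cycle, genes of Start and DNA replication were largely near the reference or not measured, and histone genes were spread over the classes. Of 15 genes of G1 cyclins and Start, 6 were near, 2 below, 1 above and 3 not measured. CLN3, for the first G1 cyclin, had 3082 and 3426 in Cy5 of the sample and 4838 and 4968 in Cy3 of the reference, 2.23-fold below, and stood at -3.02, -1.76 and -1.70 on the earlier arrays. CLN1 was at least 1.11-fold below, and WHI5, for the inhibitor of Start, at least 2.14-fold above. In DNA replication, 19 of 52 genes were near, 4 above, 8 below and 16 not measured. PSF3, of the GINS complex, was 7.63-fold above and RNR2 and RNR4, of ribonucleotide reductase, were 2.88-fold and 2.79-fold below, whereas RNR3, of the same enzyme, was 2.55-fold above. Of 11 histone genes 3 were near, 2 below and 1 above, with HTZ1, for the variant H2A.Z, 2.52-fold above and HHT2, for histone H3, 2.25-fold below. HHT2 stood at 0.68, 0.82 and -1.23 on the arrays of 5.5 h, 0 min and 20 min. Within print-tip blocks the 40 min values of HHT2 and HTZ1 were -0.48 and 0.85, short of 2-fold.

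The sporulation lists differed in how far they lay from the acetate culture. The earliest lay closest to it. Of 37 genes of recombination and synapsis, 6 were above, 5 near, 3 below and 16 not measured, with a median of 0.03, against 2.29 in SPM, 1.08 at 0 min and 0.39 at 20 min. MAM1 and CSM1, of the monopolin complex, were at least 4.98-fold and 3.23-fold above, and NDJ1, a meiotic telomere gene, at least 2.74-fold. DMC1, for the meiotic recombinase, had 936 and 937 in Cy5 of the sample, which was not above background, and 932 and 958 in Cy3 of the reference, and HOP1, of the chromosome axis, was above background in neither channel. Their ratios in SPM were 4.04 and 4.14. REC8, for the meiotic cohesin subunit, was 4.53-fold below and REC107, needed for double-strand breaks, at least 1.28-fold. Within print-tip blocks REC8 was short of 2-fold (-0.81) and MAM1 had 2.52. MND2, an inhibitor gene of the meiotic anaphase-promoting complex, was counted below by its measured ratio (-1.94 ± 0.04) but has no bound past 1. The sign of the list median depended on the scaling, and the 6 members with both channels above background had a median of 1.16.

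Many genes of the nuclear divisions were above. Of 36 B-type cyclins, spindle genes and subunits of the anaphase-promoting complex, 20 were above at 40 min, against 30 in SPM, and 3 were near, 2 below and 7 not measured, with a median of 1.65 (3.72 in SPM, 2.82 at 0 min and 1.92 at 20 min). AMA1, for the meiosis-specific activator of that complex, had 26321 and 23863 in Cy5 of the sample and 295 and 292 in Cy3 of the reference, at least 27.3-fold above. CDC26 and CDC27, for subunits of the complex, were at least 11.6-fold and 9.63-fold above. CDC15, for a kinase of mitotic exit, and KIP1, for a spindle motor, were at least 1.9-fold and 1.33-fold below.

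Over all members, the prospore membrane and spore wall lists had the highest medians of the 36 lists. Of 25 prospore membrane genes, 21 were above, 1 near and 1 below, with a median of 3.82 (5.42, 5.15 and 4.54 on the 3 earlier arrays). SPS1, for a kinase of prospore membrane formation, was at least 39.4-fold above, the meiotic spindle pole gene SPO74 at least 32.8-fold, and GIP1, SPR28 and ADY3 were 28.1-fold, 27.8-fold and 23.4-fold above with both channels measured. SPO1, at 0.18 ± 0.00, was near, and SPO75 was at least 1.21-fold below. Of 34 spore wall and other spore-specific genes, 29 were above, 2 near and none below, with a median of 5.08 (6.19, 6.37 and 5.83 earlier). RRT5, SPS2 and SPR2 were at least 42.6-fold, 40.1-fold and 35.4-fold above, and the putative glucan hydrolase gene CRR1 was 15-fold. CHS3, for a chitin synthase that growing cells also use (-0.45 ± 0.05), and OSW7 (0.39 ± 0.01) were near. CHS3 was below within print-tip blocks (-1.15). In 25 of the 29 genes above the reference was not above background. With such members at their bound the medians of the 2 lists were 3.06 and 4.27, and over the 12 and 8 members with both channels above background they were 2.40 and 1.52. At 1.52 the spore wall list lost its rank, for example to the nuclear divisions (2.07) and small-subunit rRNA processing (1.93).

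A pair of late spore wall genes had their highest values at 40 min. SPS100, a gene of spore wall maturation, had 12776 and 22817 in Cy5 of the YPD sample and 264 and 343 in Cy3 of the reference, at least 18.4-fold above. At 5.5 h, 0 min and 20 min neither channel was above background, so SPS100 was not measured there (ratios of 0.07, -0.13 and -0.09). At 40 min its ratio was 5.16 ± 0.46. DIT1, the first enzyme of dityrosine synthesis, was at least 38.7-fold above, with ratios of 3.34 ± 0.36, 2.89 ± 0.05 and 3.53 ± 3.46 on the earlier arrays and 6.36 ± 0.19 at 40 min. Its 2 spots disagreed widely at 20 min. The ORF YDL218W, of which no role is given here, had the highest ratio of all genes measured in both channels, 36-fold (a rank that GIP1, at 5.29, took within print-tip blocks), and stood at 1.20, 0.81, 2.96 and 5.17 ± 0.05 on the 4 arrays.

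**Figure D4:**
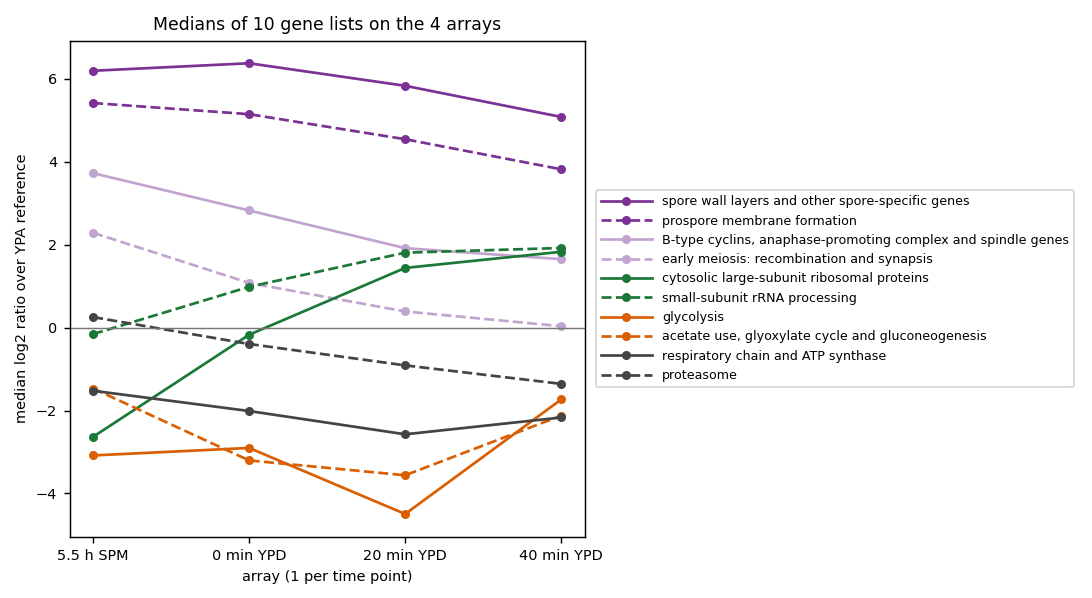
Median log2 ratio over the YPA reference of 10 gene lists (lines) on the arrays of 5.5 h in SPM and 0, 20 and 40 min in YPD, with 1 array per time point. The spore lists stay well above 0 while the early meiosis list ends at 0.03, the ribosomal lists cross to above 0, and glycolysis, acetate use, respiration and the proteasome end below 0.

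The regulators of meiosis named here stood on both sides. NDT80, which this strain expresses from the SPS4 promoter, had 25024 and 24528 in Cy5 of the sample and 349 and 339 in Cy3 of the reference and was at least 27.1-fold above. IME2 was at least 4.21-fold above and SMK1, for a kinase of spore wall formation, 11.5-fold. SUM1, for the repressor that competes with Ndt80, was 2.19-fold above, and UME6, for the DNA-binding partner of Ime1, was near at -0.24 ± 0.13. IME1, the master regulator of entry into meiosis, was among the lowest genes of the array, with 2709 and 2735 in Cy5 and 34851 and 39338 in Cy3, 23.2-fold below. It stood at -0.41 in SPM, -2.77 at 0 min and -5.14 at 20 min. RIM4 and RIM11, which promote meiotic entry, were 3.4-fold and 2.51-fold below. Within print-tip blocks RIM4 had -0.41, short of 2-fold, and IME1 -3.17. In the list of 22 regulators, 7 (31.8%) were above, 6 (27.3%) near and 4 (18.2%) below. Over all genes these shares were 17.6%, 25.9% and 17.6%, so the shares near and below were close to those of all genes.

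Signalling genes had no common side, and their shares above and below were close to those of all genes (17.6% each). In the Ras and protein kinase A list, 3 of 22 (13.6%) were above, 4 near and 4 (18.2%) below. RAS1 was 5.84-fold above, the phosphodiesterase gene PDE2 3.68-fold and IRA2, for a Ras inhibitor, 2.81-fold, while TPK2, for a catalytic subunit of the kinase, was 2.85-fold below, SRV2, which binds adenylate cyclase, 3.61-fold, and BCY1, for the regulatory subunit, was 1.78-fold lower, short of 2-fold. Among 29 regulators of glucose repression and induction, 6 (20.7%) were above, 6 near and 4 (13.8%) below. REG1 and SIP2, for partners of the phosphatase Glc7 and of the kinase Snf1, were at least 1.24-fold and 1.64-fold below.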

How the data were processed

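Spot and local background intensity of both channels were deposited as scanner output on a linear scale, neither background-subtracted nor normalized. The authors quantified the images with QuantArray (version 3). A table of log2 ratios deposited by the authors, scaled to the array median, was used as an alternative. The dye fields give Cy5 as the sample although the protocol text reverses them, and the authors' steps repeated on Cy5 over Cy3 correlated with the table at r = 0.998 across 5508 genes. Titles give 5.5 h in SPM and source names a smaller whole number.

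Background was corrected with normexp (offset 50) and each array normalized by global loess (control spots at weight 0) in limma 3.58.1 under R 4.3.3, then centred on the median gene spot. A channel was above background where either spot passed the 95th percentile of buffer spots (2034 in Cy5, 674 in Cy3). Bounds set the brighter channel against the higher of the dimmer channel's own value and the lowest value above background, after Aquantile, and are open to dye bias. Scripts were tested on simulated data. Duplicate spots correlated at r = 0.982 across genes. Spots of 3 genes were saturated. Of 6218 ORFs, 5663 took a RefSeq symbol and 555 kept the file's name. In the value table, 5562 of 6159 probes had 1 symbol, 0 several and 597 none.

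The array and 36 gene lists were chosen with earlier results of these data known. Named were the 15 highest and 15 lowest genes measured in both channels, the 10 largest bounds each way, the 3 highest and 3 lowest members of each list, paralog pairs on opposite sides, markers, and NDT80, SPS4, IME1, IME2, SUM1, SMK1, UME6, DIT1, SPS100, CLN3 and BCY1; not all are printed. Alternatives were other scalings, background corrections, filters, folds and single spots. Promoter motifs were not analysed here. The value of 1 gene of the TCA cycle list is not reported here, and its list counts and median include it. The number of arrays limits the precision.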

Additional observations from a re-analysis of the deposited data

Results flagged for a closer look

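The 2 lists of cytosolic ribosomal proteins lay on opposite sides of the reference, each past 2-fold, on the first and last arrays. The large-subunit median was 1.83 at 40 min in YPD and -2.63 at 5.5 h in SPM, and the small-subunit median was 1.78 at 40 min and -2.49 at 5.5 h. With 1 array per time point the difference was not tested. No other list of the 36 had medians past 2-fold on opposite sides.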

How the results depend on the processing

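Against a 3-fold threshold 680 genes were above and 545 below, and with a narrower fold for near 924 were near. With both channels required above background 469 were below and 980 near, without any background filter 2489 were near, and with a dim side at its bound, an alternative chosen after the data were seen, 685 were below. Normalization within print-tip blocks gave medians of 1.43 and 1.34 for the large and small ribosomal subunits, -1.84 for acetate use and 3.32 for the prospore membrane, and put DIM1 at 0.0335, turning its direction. Without background correction large-subunit assembly had 1.47, the prospore membrane 3.31 and the spore wall 4.53. Members at their bound gave 3.06 for the prospore membrane and 4.27 for the spore wall, and members with both channels above background 1.16 for early meiosis, 2.07 for the divisions, 2.40 for the prospore membrane and 1.52 for the spore wall. Scaling by the array median gave -0.22 for early meiosis and moved the median of all genes by 0.11. The cause was not tested. Of 324 comparisons of list medians 278 moved by less than the pooled SD between spots (0.193), 46 by more and 0 changed sign past 2-fold, and of 1880 for named genes these were 1474, 405 and 1. Leaving out a replicate was not possible with 1 array per group. No paired analysis was possible because each group has 1 array. The Cy5 threshold from buffer spots is close to the median gene. Against the Arabidopsis control spots the sample was above background for 97.3% of genes and the reference for 93.2%.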

Other observations

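Genes in none of the 36 lists numbered 4967, of which 673 were above the reference, 1370 near it and 812 below. The following genes were picked from them after their values were seen. THI7, for a thiamine transporter, and THI73, for a putative permease, stood at 2.92 and 2.91 on the log2 scale at 40 min, and at -0.62 and -0.31 at 5.5 h in SPM. SIT1, FIT3 and FIT1, singled out from the genes of siderophore-iron uptake with the other members not counted, stood at -3.16, -2.79 and -2.74 at 40 min, and at -4.11, -1.51 and -1.26 in SPM. Within print-tip blocks FIT3 had -3.73 at 40 min. YCR013C and YKL153W, ORFs without a RefSeq gene of their own, were 24.2-fold and 20.3-fold below at 40 min. By systematic name they stand next to PGK1 (YCR012W) and GPM1 (YKL152C), which were 11.8-fold and at least 12-fold below. Whether their spots also bound cDNA of these glycolysis genes was not tested, so they may not be separate observations. YCR013C stood at -4.60, and at -3.47 within print-tip blocks.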
